A study of Homo sapiens with 12 samples.

Results

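The peaks described here are regions of human DNA that were enriched for the REXO4-D386A protein, that overlapped a region enriched for the RNaseH1-D210N protein, and that lay at the edge of a gene. A REXO4 peak was a member when it shared at least 1 bp with an RNaseH1 peak and when its summit was no more than 1 kb from a gene's start or end, counting genes annotated as protein-coding or lncRNA. Only chromosomes 1 to 22 and X were used, and chromosome 21 below 9 Mb, which carries ribosomal DNA, was left out. The rule found 642 members among the 1460 REXO4 peaks, or 44.0% (95% exact binomial interval 41.4 to 46.6). The members were thus chosen by their presence in both peak lists and by the position of their summit, so their number, their folds and their nearness to genes are given as descriptions with no test.

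The experiment was Flag ChIP-seq in U2OS, a human osteosarcoma cell line. In REXO4-D386A cells a tet-on transgene, switched on by doxycycline, makes a nuclease-dead form of REXO4, and in RNaseH1-D210N cells it makes a nuclease-dead form of RNaseH1. Per the labels, each of these stable lines was grown with doxycycline at 1 µg/ml for about 60 h or without it, and each condition gave 2 Flag ChIP libraries and 1 input library, 12 libraries in all. The labels do not say whether a line is 1 clone, and the protein that was mapped comes from the transgene. The values analysed were 2 peak lists, 1 for each protein, and the labels do not say which libraries, which doxycycline condition or which control made them. No value per library was used here, so no result has a replicate error, and all intervals cover counting error only. The label U2OS could not be set against marker genes, because peak lists hold no expression values.

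An R-loop is a structure in which RNA pairs with one strand of the DNA and the other strand is left single. RNaseH1 cuts the RNA of such RNA:DNA hybrids, and its catalytically dead form, which binds hybrids without removing them, is widely used to map R-loops. REXO4 belongs to a family of RNA exonucleases. R-loops are known from promoters of genes rich in CpG dinucleotides and from the ends of genes, which is why the position of a peak about a gene and the DNA sequence there are described below. The study asked whether REXO4 and RNaseH1 bind R-loops.

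Sequences before the starts of some member genes come first. Start windows from RefSeq (build GRCh38.p14), which run from 250 bases before to 50 bases after an annotated gene start, were matched to 15797 protein-coding genes by gene identifier. The 250 bases before the start are printed 5′ to 3′ on the strand of the gene, with each CpG dinucleotide in capitals. The first group shows the member genes of highest REXO4 fold among those whose REXO4 summit lay in the window, chosen after their values were seen. They are ABHD12B on the plus strand (chr14:50871803-50872052), CELF5 on the plus strand (chr19:3224411-3224660), GRK2 on the plus strand (chr11:67266223-67266472), PRSS50 on the minus strand (chr3:46717870-46718119) and LLGL1 on the plus strand (chr17:18225385-18225634). KMT2A on the plus strand (chr11:118436242-118436491) is shown as a chromatin modifier gene. The REXO4 summits of GRK2 and ABHD12B lay 7 and 41 bp downstream of the start, in the window but past the printed stretch.
CELF5: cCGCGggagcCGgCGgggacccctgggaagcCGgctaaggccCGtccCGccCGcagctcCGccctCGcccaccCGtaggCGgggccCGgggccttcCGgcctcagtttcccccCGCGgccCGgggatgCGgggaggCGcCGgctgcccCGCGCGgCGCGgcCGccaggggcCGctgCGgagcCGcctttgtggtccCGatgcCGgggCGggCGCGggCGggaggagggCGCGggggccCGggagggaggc
GRK2: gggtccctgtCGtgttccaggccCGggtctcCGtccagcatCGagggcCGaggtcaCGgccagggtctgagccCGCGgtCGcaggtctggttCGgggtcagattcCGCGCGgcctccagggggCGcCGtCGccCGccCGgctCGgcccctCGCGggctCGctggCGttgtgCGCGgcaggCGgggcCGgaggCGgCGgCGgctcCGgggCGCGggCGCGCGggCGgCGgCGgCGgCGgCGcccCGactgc
LLGL1: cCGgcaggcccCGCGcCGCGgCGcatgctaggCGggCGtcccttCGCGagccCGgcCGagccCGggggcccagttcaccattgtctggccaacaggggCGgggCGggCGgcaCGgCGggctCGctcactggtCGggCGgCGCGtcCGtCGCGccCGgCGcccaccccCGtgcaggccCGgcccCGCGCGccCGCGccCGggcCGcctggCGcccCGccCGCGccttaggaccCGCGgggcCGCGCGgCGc
PRSS50: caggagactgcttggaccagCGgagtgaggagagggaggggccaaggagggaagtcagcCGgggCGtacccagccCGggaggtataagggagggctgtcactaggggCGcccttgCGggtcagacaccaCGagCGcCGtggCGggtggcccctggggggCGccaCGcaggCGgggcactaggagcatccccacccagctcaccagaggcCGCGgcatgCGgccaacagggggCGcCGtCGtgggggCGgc
KMT2A: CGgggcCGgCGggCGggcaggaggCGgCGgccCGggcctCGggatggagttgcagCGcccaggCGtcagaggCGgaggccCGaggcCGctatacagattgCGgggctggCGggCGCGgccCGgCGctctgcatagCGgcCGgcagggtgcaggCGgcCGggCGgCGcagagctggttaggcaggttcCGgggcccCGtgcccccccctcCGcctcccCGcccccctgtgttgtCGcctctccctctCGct
ABHD12B: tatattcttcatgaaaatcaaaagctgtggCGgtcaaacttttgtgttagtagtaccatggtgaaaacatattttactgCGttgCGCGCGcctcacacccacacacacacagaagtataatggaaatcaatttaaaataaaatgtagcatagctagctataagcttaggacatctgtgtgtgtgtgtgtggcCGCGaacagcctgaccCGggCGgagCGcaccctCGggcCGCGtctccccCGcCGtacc
CpG dinucleotides are dense in CELF5, GRK2 and LLGL1, whose printed stretches were 84.0%, 81.2% and 84.8% G and C. ABHD12B had 48.4% G and C and 15 CpG dinucleotides, and PRSS50 had 72.8% and 20, against 47 CpG dinucleotides in LLGL1.

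For contrast, a pair of ribosomal protein genes is shown that had an RNaseH1 summit in the window and no REXO4 peak. Among such genes they were picked for the highest RNaseH1 folds. They are RPL31 on the plus strand (chr2:101002039-101002288) and RPS24 on the plus strand (chr10:78033613-78033862).
RPL31: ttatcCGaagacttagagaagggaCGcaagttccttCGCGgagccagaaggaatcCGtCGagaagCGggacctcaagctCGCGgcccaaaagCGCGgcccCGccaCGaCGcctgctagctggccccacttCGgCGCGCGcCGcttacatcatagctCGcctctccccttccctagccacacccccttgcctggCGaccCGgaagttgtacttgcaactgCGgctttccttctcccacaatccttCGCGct
RPS24: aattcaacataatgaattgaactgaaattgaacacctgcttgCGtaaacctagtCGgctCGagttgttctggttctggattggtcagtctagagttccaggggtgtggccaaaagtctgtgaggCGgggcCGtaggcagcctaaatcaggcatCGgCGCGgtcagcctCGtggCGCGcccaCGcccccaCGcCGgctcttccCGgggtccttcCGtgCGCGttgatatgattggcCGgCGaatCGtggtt
RPL31 had an RNaseH1 fold of 5.04 (95% exact Poisson interval 4.10 to 6.13) and RPS24 one of 4.30 (3.36 to 5.44). Their printed stretches were 62.4% and 57.2% G and C, below those of every member shown apart from ABHD12B. Their 25 and 21 CpG dinucleotides were more than in PRSS50 and ABHD12B and fewer than in the other members shown.

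The members made up most of the REXO4 peaks at gene boundaries. On the sequence used, 1329 REXO4 peaks were counted, of which 950 overlapped an RNaseH1 peak (71.5%, interval 69.0 to 73.9). Of these 950, 642 lay at a boundary (67.6%, 64.5 to 70.5), against 114 of the 379 peaks without an RNaseH1 overlap (30.1%, 25.5 to 35.0). Read the other way, 642 of 756 boundary peaks were shared (84.9%, 82.2 to 87.4), against 308 of 573 peaks farther away (53.8%, 49.6 to 57.9). RNaseH1 boundary peaks that overlapped no REXO4 peak had a median width of 655 bp, against 365 bp over all RNaseH1 peaks. The part of RNaseH1 peak width in these shares was not tested. The number of shared peaks dropped steeply with distance. There were 642 within 1 kb of a boundary, 59 between 1 and 2 kb and 32 between 2 and 3 kb.

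Few peaks lay near the 1 kb limit. Just inside it lay the peaks named by MEX3B at 944 bp, RRBP1 at 964 bp, TSHZ1 at 976 bp, MCMBP at 984 bp and the lncRNA gene FOXCUT at 999 bp. Their REXO4 folds were 1.89, 1.82, 1.87, 1.54 and 2.41 in that order. Just outside lay LINC02939 at 1005 bp, ARSB at 1007 bp, ROCK2 at 1010 bp, ADCY5 at 1019 bp and CACNA1A at 1036 bp, with folds of 1.57, 1.58, 1.46, 2.57 and 2.31. The folds on both sides of the limit overlapped.

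Fold enrichment is the authors' value for each peak, the pileup of ChIP fragments at the summit over the expected pileup, each with 1 added. The members had low folds on deep coverage. Their median REXO4 fold was 1.98 (interquartile range 1.74 to 2.28, lowest 1.38, highest 4.92), with a median of 111 fragments at the summit against an expected 55.4. The 114 REXO4 boundary peaks without an RNaseH1 overlap had a median fold of 3.20 on 28 fragments against an expected 8.46. The 308 shared peaks away from boundaries lay between them at 2.26, on 68 fragments against 32.9. Widths were alike at boundaries, with a median of 369 bp in members and 366.5 bp in the peaks without overlap.

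All 642 members had a counting interval for the fold that began above 1. A peak is listed because its pileup exceeded the expected pileup, and the interval was built from the same fold and p-value. This outcome was thus largely set by the peak calling. By the authors' q-value, 388 members (60.4%) were at or below 1e-05 and 22 (3.43%) were above 0.05, the largest q being 0.179. The plot of folds against expected pileup shows that members of high expected pileup had low folds, with a Spearman correlation of -0.69 over 642 members that share their library or pool and, through the definition of the fold, the expected pileup itself. At a low expected pileup, a higher fold is needed to reach the same p-value. The correlation, and the medians of the parts above, are thus partly set by the peak calling. The part of expected pileup in the order of folds was not tested.

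**Figure D1:**
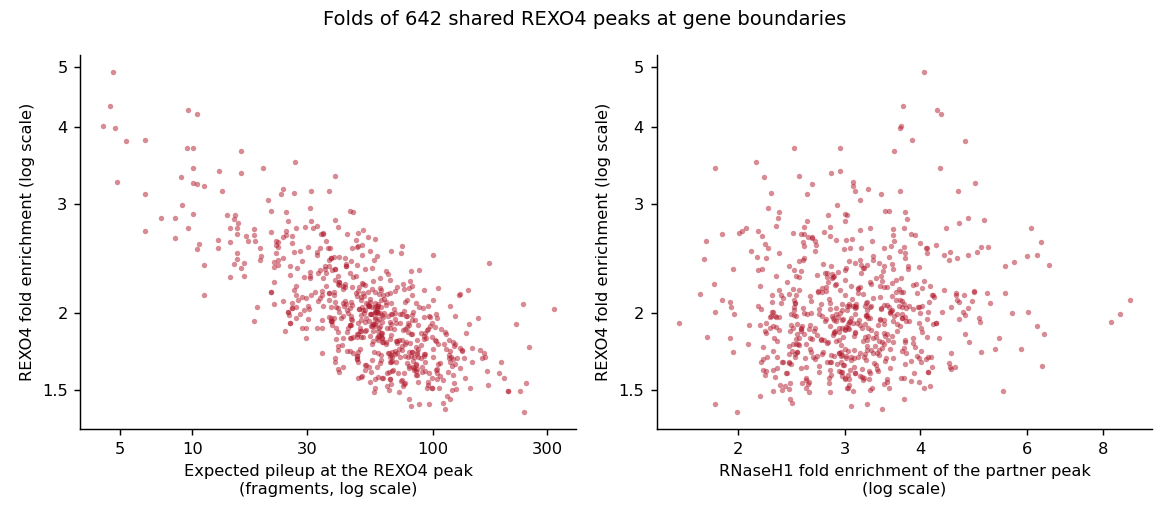
Each point is a member peak, with its REXO4 fold enrichment on the vertical log axis. On the left the horizontal log axis is the expected pileup in fragments, and on the right it is the RNaseH1 fold of the overlapping RNaseH1 peak; folds drop with expected pileup (Spearman correlation -0.69) and show little relation to the RNaseH1 fold (0.08).

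The members of highest fold included transcription factor genes and lncRNA genes. FOXI3, a forkhead transcription factor gene of ectodermal development, had the highest fold at 4.92 (95% exact Poisson interval 3.30 to 7.08), resting on 27 fragments against an expected 4.69. IRX2, an Iroquois homeobox gene, had a fold of 4.01 (2.52 to 6.09) on 20 fragments, and CXXC4, whose product binds Dishevelled and restrains Wnt signalling, had 3.98 (2.56 to 5.94) on 22. These intervals are wide because few fragments stood behind them. SPI1, which encodes the myeloid transcription factor PU.1, had 4.20 (3.11 to 5.55) on 47 fragments. The lncRNA genes LOC105369658, LOC124903360 and LOC105372019 had 4.33 (2.81 to 6.41), 4.26 (3.12 to 5.69) and 3.70 (2.65 to 5.05).

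Other members among the 20 of highest fold rested on more fragments. SKI, a corepressor of SMAD signalling, had a fold of 3.51 (2.85 to 4.28) on 96 fragments in a peak of 1062 bp. GRK2, the kinase that phosphorylates activated G protein-coupled receptors, had 3.33 (2.79 to 3.94) on 133 fragments against an expected 39.3. CELF5, a gene of a splicing factor family, had 3.66 (2.82 to 4.69), and CNNM4, a magnesium transport gene, had 3.44 (2.69 to 4.33). The remaining 9 were FAM181B, PAUPAR, ABHD12B, IRAK3, C1QL1, LOC107986355, RBMXL2, DLX6 and LOC105370564 with folds of 3.25 to 3.81, and the intervals of neighbours in this order overlapped.

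The lowest q-values belonged to peaks of deep coverage and moderate fold. BSN, which encodes the presynaptic scaffold Bassoon, had the lowest q, with −log10 q of 54.3 at a fold of 2.03 (1.88 to 2.19) on 650 fragments against an expected 319.5. BICDL1, a gene for a dynein adaptor, followed with −log10 q of 50.9 at a fold of 2.41 (2.19 to 2.66), and AP3B2, a neuronal subunit of the AP-3 vesicle coat, with 42.3 at 2.06 (1.89 to 2.25). Only GRK2 was both among the 10 members of lowest q and among the 20 of highest fold. RHOU, a small GTPase gene, LOC124903896, SCRT2, BRD1, ZNF236 and KAT6A made up the rest of the 10, with −log10 q of 24.8 to 31.9. The widest members were at NANOS1, a translational repressor gene, with 1372 bp, then SKI with 1062 bp, PLPPR3 with 1010 bp and TBXAS1, the thromboxane synthase gene, with 928 bp. FOXI3, SFMBT1, B3GLCT, USP31, BRD1 and BRD3 followed with 815 to 918 bp.

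The RNaseH1 peaks that overlapped members were wider and more deeply covered than other RNaseH1 peaks at boundaries, with a fold close to theirs. Over the 638 distinct partner peaks the median RNaseH1 fold was 3.09 (interquartile range 2.63 to 3.67) on 91 fragments against an expected 27.9, and the median width was 961 bp (905 to 1008 for the interval of the median). The 15916 RNaseH1 boundary peaks that overlapped no REXO4 peak had a median fold of 3.02 (2.61 to 3.55) on 67 fragments against 20.2, and a width of 655 bp (646 to 663). A wider peak has more room for an overlap, and the part of width in this difference was not tested. The partners were 1.17% of the 54623 RNaseH1 peaks. Of the 16593 RNaseH1 boundary peaks, 677 overlapped any REXO4 peak (4.08%, 3.78 to 4.39).

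The highest partner folds were at TBX3, RABEP1 and SMARCC2. TBX3, a T-box transcription factor gene, had an RNaseH1 fold of 8.87 (7.39 to 10.6) and a REXO4 fold of 2.10 (1.61 to 2.70). RABEP1, the gene of the Rab5 effector rabaptin-5, had an RNaseH1 fold of 8.54 (7.49 to 9.70) and a REXO4 fold of 1.99 (1.67 to 2.35). SMARCC2, a subunit gene of the BAF chromatin remodelling complex, had an RNaseH1 fold of 8.25 (6.90 to 9.78) and a REXO4 fold of 1.93 (1.61 to 2.31). These REXO4 folds lay close to the members' median of 1.98. KMT2A, which encodes a histone H3 lysine methyltransferase, had an RNaseH1 fold of 6.35 (5.51 to 7.29) beside one of the lower REXO4 folds, 1.64 (1.37 to 1.94). DPY19L1, MEMO1, LINC02992, RHOU, LINC01003 and WDR18 completed the 10 with RNaseH1 folds of 6.08 to 6.52. Across all 642 members the Spearman correlation of the REXO4 and RNaseH1 folds was 0.08, while the expected pileups of the 2 lists correlated at 0.86. The folds are on separate scales in the 2 lists and are not set against each other.

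The summits of both proteins lay close together, but the rule requires overlapping peaks and the nearest RNaseH1 summit was taken. Short distances, and REXO4 summits inside RNaseH1 peaks, are thus partly set by the choice of members. How far the widths of the peaks alone would give them was not tested. The REXO4 summit was a median of 116 bp from the nearest RNaseH1 summit (interquartile range 45 to 245.5), within 200 bp in 447 members (69.6%) and within 50 bp in 182 (28.3%). In the 308 shared peaks away from boundaries the median was 102.5 bp, and 225 (73.1%) were within 200 bp, so the intervals of both shares overlapped. The REXO4 summit itself lay inside an RNaseH1 peak in 583 members (90.8%). Among members of above-median fold, the summits fell on the same base at ZC3H7A, CXXC4, TTC39A and GNA15, and 1 to 4 bp apart at LGI3, SELENON, LOC124901234, TNFRSF11A, TLE5 and TP53INP1. TLE5 encodes a protein of the Groucho family of corepressors, GNA15 a G protein alpha subunit and TP53INP1 a p53-induced protein.

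The members lay mainly at gene starts. The strand of the nearest gene was known for 484 members, and for 468 of them the nearest boundary was a start (96.7%, 94.7 to 98.1). The share was 88.1% among RNaseH1 boundary peaks without a REXO4 overlap (11058 of 12554, 87.5 to 88.6) and 87.8% among REXO4 boundary peaks without an RNaseH1 overlap (72 of 82, 78.7 to 94.0). Genes with no known strand were left out of all 3 shares. Among the 16 members nearest to a gene end were the wide peak at PLPPR3 and the lncRNA gene LOC105372019.

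About those starts, REXO4 summits lay mostly just inside the gene. With a start of known strand within 1 kb, 491 members had their REXO4 summit at a median of 161 bp downstream (interquartile range -4 to 289), and 367 lay downstream (74.7%, 70.7 to 78.5). The partner RNaseH1 summits had a median of 160 bp, and the 11494 RNaseH1 boundary peaks without REXO4 one of 121 bp with 70.6% downstream (69.8 to 71.5). The REXO4 summit was farther downstream than its partner in 248 of 488 members (50.8%, 46.3 to 55.3), so REXO4 summits lay upstream and downstream of their partners about equally often. Starts on both strands within 1 kb, as at divergent gene pairs, were found for 104 of the 491 members (21.2%, 17.6 to 25.1) and for 23.7% of the RNaseH1 boundary peaks without REXO4 (23 to 24.5).

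**Figure D2:**
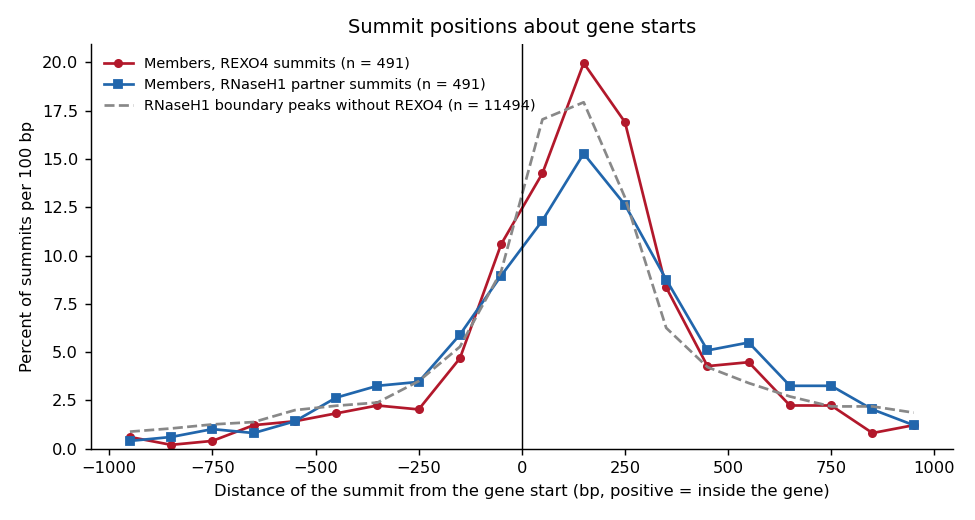
The horizontal axis is the distance of a summit from the gene start in bp, positive inside the gene, and the vertical axis the percent of summits in each 100 bp. REXO4 and partner RNaseH1 summits of 491 members and summits of 11494 RNaseH1 boundary peaks without REXO4 all peak just downstream of the start, with medians of 161, 160 and 121 bp.

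Most members touched 1 gene. There were 473 members with 1 gene boundary within 1 kb (73.7%), 163 with 2 genes (25.4%) and 6 with 3 or more (0.935%). The 6 were at GLTP with TCHP and LOC124903012, CDH24 with ACIN1 and LOC105370705, BOLA2, CTXN1 with TIMM44 and LOC124904629, NRBP2 with PUF60 and LOC107986985, and NR6A1 with LOC107987126 and LOC124900274. BOLA2 stands in a duplicated stretch of chromosome 16, so reads there may be shared with a near-identical copy. At 10 genes, LLGL1, a cell polarity gene, among them, 2 members carried the same name. The LLGL1 members had REXO4 folds of 3.12 (2.50 to 3.85) and 2.32 (1.86 to 2.86) and separate RNaseH1 partners.

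Altogether 804 genes had a member at a boundary. They were 623 of 19821 protein-coding genes, or 3.14%, and 181 of 17904 lncRNA genes, or 1.01%. An RNaseH1 peak stood at a boundary of 65% of the same protein-coding genes and 25.3% of the lncRNA genes. Over both classes the shares were 2.13% with a member and 46.2% with an RNaseH1 peak. Neither REXO4 nor RNASEH1, the genes that the transgenes copy, had a member. By chromosome, the share of genes with a member was highest on 17 (74 of 1857, 3.98%) and 20 (3.86%) and lowest on X (3 of 1227, 0.244%).

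The first 32 gene lists were drawn up with earlier results of these data known, so their counts too are descriptions. Among them, that of chromatin modifiers held the most members. A member was found at 16 of 74 (21.6%, 12.9 to 32.7), beside 3.14% of all protein-coding genes, and the median fold of the 16 was 2.05. KAT2B, a histone acetyltransferase gene, had the highest REXO4 fold at 2.81 (2.21 to 3.53). DOT1L, which methylates histone H3 lysine 79, had 2.48 (2.07 to 2.95). BMI1, a Polycomb gene, had 2.35 (1.88 to 2.90) in a peak whose nearest boundary was the end of its neighbour COMMD3. KMT2C, a lysine methyltransferase gene, had 2.28 (1.92 to 2.68), and KAT6A, an acetyltransferase gene, had 2.14 (1.90 to 2.41). SMARCC2 and KMT2A, given above for their RNaseH1 folds, belong to the same list. The list of ERK and MAPK feedback inhibitors had a member at 5 of 19 (26.3%, 9.15 to 51.2). They were SPRY2, a Sprouty inhibitor of receptor tyrosine kinase signalling, at 2.33 (1.83 to 2.92), and the dual-specificity phosphatase genes DUSP16, DUSP8, DUSP5 and DUSP7 at 2.03, 1.99, 1.81 and 1.62. By the rule a member needs an RNaseH1 peak. Such a peak stood at a boundary of 87.8% of the chromatin modifier genes and 89.5% of the feedback inhibitor genes, against 65% of all protein-coding genes. The part of this in both counts was not tested.

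Several lists held many RNaseH1 peaks and no member. No member was found at any of the 78 cytosolic ribosomal protein genes (upper bound 4.62%), of which 74 had an RNaseH1 boundary peak, nor at any of 47 translation factor genes (upper bound 7.55%), all of which had one. The lists of nucleolar proteins (0 of 41), SR and hnRNP proteins (0 of 44), chaperones (0 of 44), DNA replication (0 of 38), aminoacyl-tRNA synthetases (0 of 23), cholesterol synthesis (0 of 23), glycolysis (0 of 21), telomere maintenance (0 of 21), the unfolded protein response (0 of 29), replication-dependent histones (0 of 63) and histone variants (0 of 11) also held none. The list of genes of other tissues held none of 32, and 5 of these had an RNaseH1 peak. In total, 14 of 32 lists held no member, and 450 of their 512 distinct genes (87.9%) had an RNaseH1 boundary peak. The upper bound of each of the 14 lists lay above the background of 3.14%, so no single list stood below it beyond counting error.

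The other lists held 1 to 4 members each, and the intervals of the lists of protein-coding genes among them held the 3.14% background. A member was found at DDX5, an RNA helicase gene and the only 1 of 36 R-loop processing factor genes and of 42 spliceosome core genes, with a REXO4 fold of 1.81 (1.43 to 2.27) and an RNaseH1 summit 1633 bp away. NBN was the only 1 of 42 DNA repair genes, at 2.16, BRD3 the only 1 of 59 RNA polymerase II and elongation genes, at 2.23, and TP53INP1 the only 1 of 25 p53 pathway genes, at 2.69. CDC25B and E2F1 were the 2 of 56 cell cycle genes, at 2.16 and 1.43. Cytoskeleton and focal adhesion genes had 4 of 50 (PXN, SEPTIN9, LIMK1 and RAC1), KLF and SP factors 3 of 26 (KLF14, KLF2 and KLF3), ubiquitin and proteasome genes 2 of 47 (CUL3 and USP7) and immediate early genes 2 of 34 (KLF2 and IER5L). In the list of 42 snoRNA hosts and abundant lncRNAs, nearly all lncRNA genes, 3 had a member (7.14%, 1.5 to 19.5), namely SNHG10, PVT1 and MIR23AHG, and this interval lay above the 1.01% of all lncRNA genes. By the rule a member needs an RNaseH1 peak. Of these 42 genes, 36 (85.7%) had one at a boundary, against 25.3% of all lncRNA genes, and the part of this in the count was not tested. Single members were at SMAD7 of 20 YAP/TEAD and TGF-beta target genes, MXD4 of 15 MYC network genes, HOXB8 of 39 HOX genes, DLX6 of 26 osteoblast genes and VDAC1 of 47 mitochondrial protein genes.

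Gene families named below were picked after the members' names were seen, so their counts only describe where members lay. Wnt pathway genes had a member at 16 of 89 (18%, 10.6 to 27.5). The ligand gene WNT4 had a REXO4 fold of 2.75 (2.20 to 3.41). At the membrane, the co-receptor gene RYK had a fold of 1.85, LGR4 1.56, the receptor ubiquitin ligase gene ZNRF3 1.92 and CELSR1, of planar cell polarity, 2.03. Among cytoplasmic components, DVL1 and DVL3 had folds of 1.89 and 2.08, FRAT1 and FRAT2 2.47 and 1.86, PRICKLE1 and PRICKLE4 2.38 and 2.05, and the feedback inhibitor AXIN2 1.93. In the nucleus, the transcription factor gene TCF7L1 had 1.94, TLE5 2.30 and the beta-catenin inhibitor gene CTNNBIP1 1.58, and CXXC4, given above, had the highest fold of the list. Notch pathway genes had 7 of 42 (16.7%, 6.97 to 31.4), among them the ligand JAG2 at 2.43, the receptor NOTCH1 at 1.67, the coactivator MAML3 at 1.95 and the target HEY1 at 2.36. G protein subunit and receptor kinase genes had 6 of 39 (15.4%, 5.86 to 30.5), with both GRK2 at 3.33 and GRK3 at 2.69. RNaseH1 boundary peaks stood at 75.3% of the Wnt genes, 88.1% of the Notch genes and 69.2% of the G protein list. The share of all protein-coding genes was 65%.

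Developmental transcription factor families had 21 of 189 (11.1%, 7.01 to 16.5), led by FOXI3, IRX2 and DLX6, and included 2 of 4 TEAD genes (TEAD1 and TEAD4) and 2 of 4 EBF genes (EBF1 and EBF4). Glycosyltransferases and sulfotransferases had 14 of 120 (11.7%, 6.53 to 18.8), among them MGAT3, which adds a bisecting N-acetylglucosamine to N-glycans, at 2.84 and the xylosyltransferase genes GXYLT1 and GXYLT2 at 1.84 and 1.93. Neurotransmitter receptors had 7 of 101 (6.93%, 2.83 to 13.8), with HTR6, GRIK4 and GRM2 at 2.70, 2.51 and 2.46. Potassium channels had 5 of 78 (6.41%, 2.11 to 14.3), with KCNQ3 at 2.88. Both intervals held the 3.14% of all protein-coding genes. Zinc finger ZNF genes had 8 of 509 (1.57%, 0.681 to 3.07), with 69.2% carrying an RNaseH1 peak, while olfactory receptor genes had 0 of 389, which allows a share of up to 0.944%, and keratin genes 0 of 55. A member needs an RNaseH1 peak, and only 6 of the 389 olfactory receptor genes (1.54%) and 10 of the 55 keratin genes (18.2%) had one.

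**Figure D3:**
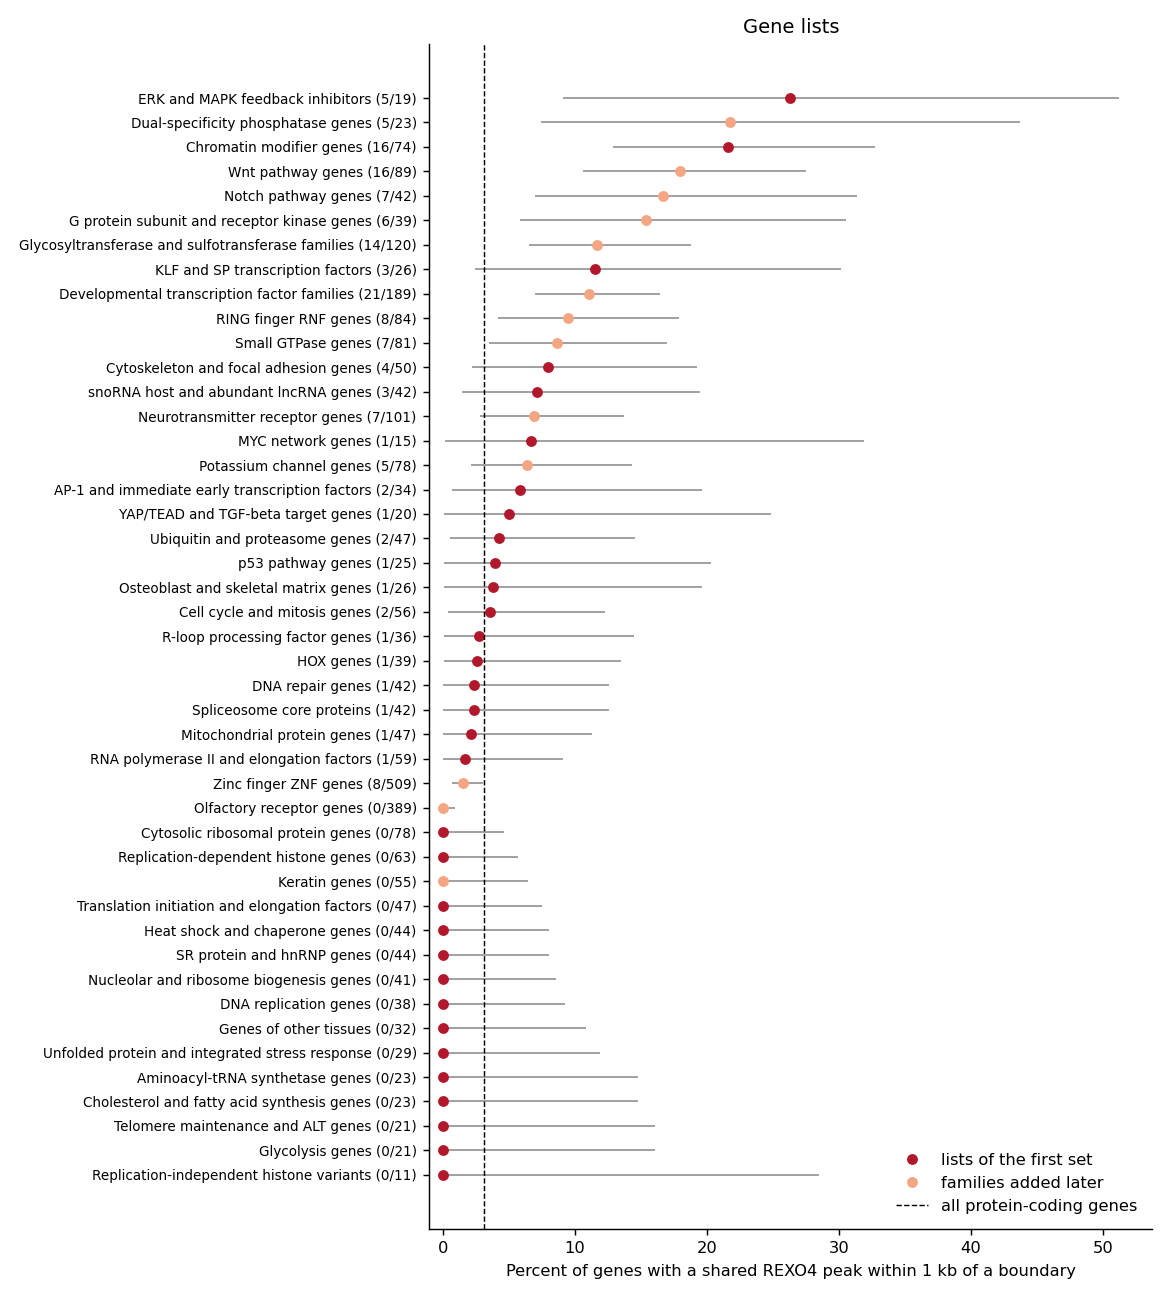
Each row is a gene list with its number of genes with a member over the genes found, the point gives that percent and the line its 95% exact binomial interval; dark points are the lists of the first set, drawn up with earlier results of these data known, light points are families added after the members' names were seen, and the dashed line is the 3.14% of all protein-coding genes. Chromatin modifiers stand at 21.6% and ribosomal protein genes at 0%.

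Start windows that held a member summit were high in GC content. The 22112 start windows of protein-coding genes had a median of 62.3% G and C, and 120 of them (0.543%) held a member summit. In these 120 the median was 80% (interquartile range 77.0 to 82.0) with 45 CpG dinucleotides in 300 bases. The 20 windows with the summit of a REXO4 boundary peak that overlapped no RNaseH1 peak had a median of 75.2% with 39 CpG dinucleotides. The 3730 windows with an RNaseH1 summit and no REXO4 summit had a median of 68.3% (63.3 to 73.3) with 29, and the 18217 windows with no summit had 60.3% with 17. Over all start windows of the member genes, whether or not a summit fell in them, the median was 73.2% (71.7 to 74.3 for the interval of the median). The skew of G over C did not set the members apart, with medians of 0.0102 in member windows, 0.0222 in windows with RNaseH1 alone and 0.0204 in all windows.

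The share of windows with a member climbed with GC content, though the intervals of the highest class and the one below it overlapped. It was 0.409% of windows above 70 and up to 75% GC, 2.57% above 75 and up to 80%, 7.95% above 80 and up to 85%, and 11.4% (8 of 70, 5.07 to 21.3) above that. At or below 65% GC, 2 of 13148 windows held a member, while above 75% GC 104 of 2569 did, which was 86.7% of member windows in 11.6% of all windows. RNaseH1 summits followed another course. They stood in 17.2% of all windows, in 29.9% of windows above 70 and up to 75% GC, in 21.7% above 80 and up to 85% and in 10.0% of the highest class (4.12 to 19.5). Within the 114 members whose summit fell in a window (a summit can fall in windows of several starts), GC content had a Spearman correlation of -0.05 with the REXO4 fold and 0.19 with the expected pileup. The part of base composition and of expected pileup in where members stood was not tested.

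**Figure D4:**
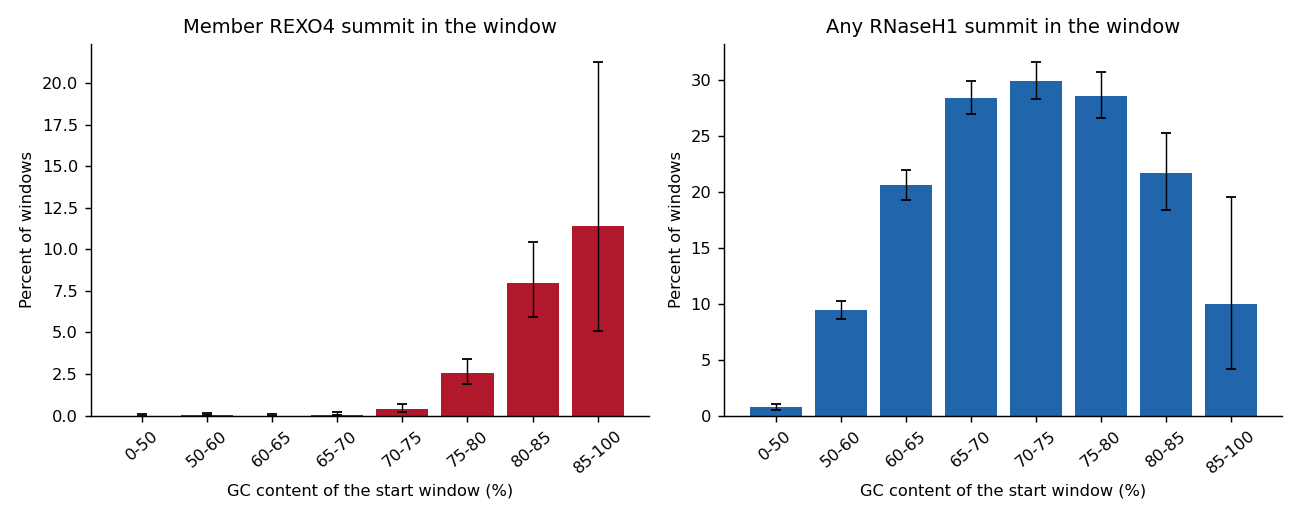
The horizontal axes give the GC content of 300-base start windows in classes, and the vertical axes the percent of windows in a class that held a member REXO4 summit (left) or any RNaseH1 summit (right), with 95% exact binomial intervals as error bars. The member share is largest in the highest class (11.4%) and the RNaseH1 share between 70 and 75% GC (29.9%). The interval of each overlaps that of a neighbouring class.

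GC content moved with the gene lists too. Genes with at least 1 start window above 75% GC had a member at 285 of 2340 (12.2%, 10.9 to 13.6), and genes with none at 191 of 13457 (1.42%, 1.23 to 1.63). Chromatin modifier genes had a member at 9 of 19 in the first class (47.4%, 24.4 to 71.1) and at 2 of 44 in the second (4.55%, 0.555 to 15.5). Wnt pathway genes had 6 of 25 (24.0%, 9.36 to 45.1) and 7 of 45 (15.6%, 6.49 to 29.5). Genes without a start window were left out of both classes. The classes thus hold 63 of the 74 chromatin modifier genes and 70 of the 89 Wnt pathway genes, and some genes with a member are missing. All 62 ribosomal protein genes with a window were in the class without a GC content above 75%. GC content thus differed between the lists, and its part in their counts was not tested.

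Short sequence motifs were searched on both strands of the 300-base windows. A run of 3 CGG triplets, CGGCGGCGG, was in 36.7% of the 120 member windows (28.1 to 46.0), in 12.3% of windows with RNaseH1 alone and in 8.09% of all windows. In GRK2 above, the run stands near the end of the printed stretch. The GC box GGGGCGGGG, matches of which can overlap those of the run, was in 40.8%, 27.2% and 20.6%. The CCAAT box CCAAT was in 12.5%, 28.5% and 34.7%, the TATA box TATAAA in 1.67%, 3.16% and 9.47%, the ETS core CCGGAAG in 9.17%, 21.7% and 12.8%, and the cyclic AMP response element TGACGTCA in 2.50%, 3.62% and 2.26%. Held to windows of 75 to 85% GC, the shares lay closer together for the CGG run and for CCAAT, and for the GC box the order turned. The CGG run was then in 38.1% of 97 member windows (28.5 to 48.6), in 30.1% of 668 windows with RNaseH1 alone (26.6 to 33.7) and in 30.1% of all 2678, and CCAAT was in 13.4%, 15% and 19.6%. The GC box was in 42.3% of member windows (32.3 to 52.7), in 43.9% of windows with RNaseH1 alone (40.1 to 47.7) and in 52.6% of all, so members no longer had the highest share. The intervals of member windows and windows with RNaseH1 alone overlapped for all 3 motifs. GC content still differed within this band, with medians of 80% in member windows, 77.7% in windows with RNaseH1 alone and 78% in all. Its part in the remaining differences was not tested. A match says only that the letters are in the window.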

How the data were processed

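Peaks were mapped by Flag ChIP-seq in U2OS lines expressing REXO4-D386A or RNaseH1-D210N. Per the submitters' processing notes, the tools included Trim Galore 0.6.10, HISAT2 2.2.1, SAMtools 1.17, deepTools 3.5.1 and MACS2 2.1.0.20150731, with build hg38. The role of each tool apart from its name, the control, the peak threshold and the pooling of libraries are not stated in the labels or notes used here. Both deposited lists give a fold enrichment and the −log10 p-value and −log10 q-value of each peak, as the authors' caller wrote them. The authors' peak score was not used.

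Fragments at a summit and the expected pileup were recovered from fold and p-value as the whole number whose Poisson tail fits within 0.05 fragments, for 1459 of 1460 REXO4 and all 54623 RNaseH1 peaks. Intervals are 95% exact Poisson or binomial, treat neighbouring peaks as independent and count PCR reads without molecular identifiers as fragments. Intervals of medians come from binomial order statistics. Depth per library is unknown.

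Gene positions came from RefSeq. Of 59792 genes, 58998 were kept and 794 without a usable position or order were left out. Strand was known for 15813 of 19821 protein-coding and 11384 of 17904 lncRNA genes, from the start windows. A peak was named by the nearest protein-coding gene, else the nearest lncRNA gene. Named genes were the 20 members of highest fold, the 10 of lowest q, the 10 widest, the 10 of highest RNaseH1 fold, the 10 of closest summits with a fold above the median, those at the 1 kb limit, those at 3 or more genes, up to 6 per list, and REXO4 and RNASEH1. Genes of added families and those named for their sequence were chosen after their values were seen. A few genes under this rule are not reported here. The members and lists were chosen with earlier results of these data known. Recovery and overlap were tested on simulated data. Alternatives were another overlap, window, q limit or gene class, any base of the peak in place of its summit, and the fold without the added 1. Scripts ran in Python 3.11.15 with pandas 2.3.3, SciPy 1.17.1, NumPy 2.4.6 and, for plots, matplotlib 3.10.9.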

Additional observations from a re-analysis of the deposited data

How the results depend on the processing

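Of 64 alternatives over 12 results, 48 stayed within the counting interval or 1.5 times the count of the value reported, and 16 moved. The cause was not tested. The Spearman correlation of the folds was 0.07 with a window of 500 bp and 0.06 with protein-coding genes only. Its approximate intervals there included negative values (-0.0107 to 0.156 and -0.0216 to 0.141). With only peaks of q at or below 1e-05 kept, 372 members were left in place of 642, the share nearest to a start was 98.5%, the median fold 2.07, the share of protein-coding genes 1.81% and the Spearman correlation of the folds 0.22. Requiring an overlap of 50% of the REXO4 peak gave a summit distance of 104 bp and 2.78% of genes. Summits within 200 bp gave 67 bp, by construction shorter, a partner fold of 3.18 and 2.16% of genes. A window of 500 bp gave 16.4% of members at 2 or more genes and 2.61% of genes, and a window of 2 kb gave 32.7% and 3.58%, against 26.3% and 3.14% as reported. With protein-coding genes only, 9.12% of members were at 2 or more genes. Start windows that hold the summit, an alternative chosen after seeing the data, had a median GC content of 80%, against 73.2% over all windows of member genes. Read without the added 1, the fold gave whole fragments for 33 members, against all 642 with it. No paired analysis was possible because the peak lists carry no values per library, and replicates could not be left out for the same reason. Folds on few fragments, such as that of FOXI3, carry the widest intervals.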
